A study of Homo sapiens with 8 samples.

Results

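The regions described here are stretches of chromatin that were open on every day of a time course of SMARCB1 re-expression and whose ATAC-seq peak was at least 2 times as wide on day 3 as on day 0. They are called widened regions below. Of 146099 regions obtained by merging the peaks of 4 daily lists, 60786 held a peak in every list and 55973 held exactly 1 peak in each, and 2647 of these 55973 were widened. They were chosen by their widths on days 0 and 3, so both are given as a description, with no test.

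Accessibility was measured by ATAC-seq in G401, an established human line of kidney rhabdoid tumour cells without SMARCB1. All groups were of a stable G401 line with an inducible SMARCB1, kept in medium with serum free of tetracycline. Uninduced cells (day 0) are labelled SMARCB1 -/-, and cells given 1 µg/ml doxycycline for 1, 3 or 7 days are labelled SMARCB1 +/+. Each of the 4 groups has 2 replicates, 8 samples in all, and the labels do not say whether replicates were separate cultures or whether the line was 1 clone.

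SMARCB1 is a core subunit of SWI/SNF, a complex that uses ATP to slide and evict nucleosomes, mostly at enhancers and promoters. In ATAC-seq a transposase inserts adapters into DNA that is not wrapped in nucleosomes, so reads pile up where chromatin is open. A peak caller marks the stretch over which the pile stands above its threshold, and the width of a peak therefore reads both how far the open stretch reaches and how high the pile is.

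The deposited values are 1 peak list for each day, so no value has a replicate error and no p-value is given. The day 0 list held 80744 peaks, and those of days 1, 3 and 7 held 109876, 117606 and 103182. Depth was read from the genome-wide background of each list, which was 6.34 reads on day 0 and 0.953, 1.06 and 0.962 times that on days 1, 3 and 7. Summit height is given as the reads at the highest point of a peak and as the scaled summit, those reads divided by the genome-wide background of the list. The weakest peak kept had a -log10 q of 2.44 on day 0 and of 2.06, 2.01 and 2.19 on days 1, 3 and 7. The caller settings are not given, so these values do not show whether the limit itself differed between days. A lower limit would keep more of a peak's edges, and any part of such a difference in the widths was not tested. All intervals are 95% intervals: those of shares treat regions as independent draws, those of medians come from ranks, and those of summit ratios cover counting error alone. None of them covers the spread between replicates.

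Widened regions started as narrow, low peaks and reached the size of a usual peak after induction. Their median width was 275 bp on day 0, 698 bp on day 1, 781 bp on day 3 and 625 bp on day 7. The middle 90% of them spanned 200 to 495 bp on day 0 and 471 to 1321 bp on day 3. Over all 55973 regions the median width was 538, 617, 607 and 577 bp on the same days, so the widened regions went from well below the usual width to above it. A median of 481 bp (471 to 490) was added between days 0 and 3.

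Summits followed the same course. The widened regions held a median of 32 reads at the summit before induction and 66, 77 and 55 reads on days 1, 3 and 7. As scaled summits these medians were 5.04, 10.9, 11.4 and 9.02, against 10.9, 12.6, 11.3 and 11.2 over all regions. The widened regions thus had less than the usual height in uninduced cells and close to the usual height after 3 days of SMARCB1. The authors' fold, the summit over the local background of the same list, had medians of 3.00, 4.54, 4.65 and 4.11 in the widened regions and 4.58, 4.97, 4.74 and 4.68 over all regions.

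**Figure D1:**
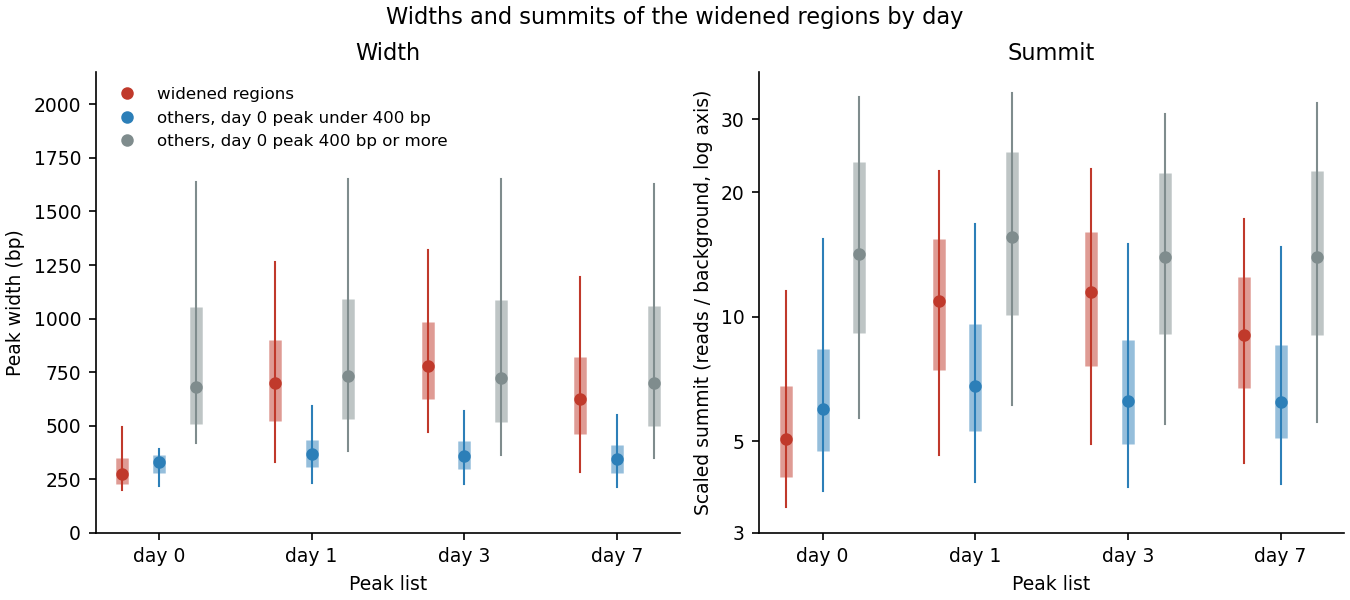
Peak width in bp (left) and scaled summit on a log axis (right) by day for the 2647 widened regions and for the others. The others are split into 13044 regions with a day 0 peak under 400 bp and 40282 with one of 400 bp or more. Points are medians, thick bars span the middle 50% and thin bars the middle 90% of regions, and the widened regions go from a median of 275 bp on day 0 to 781 bp on day 3.

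Regions that doubled in width outnumbered those that fell to 50% on every induced day, but the 2 counts do not have equal room. Over the 55973 regions, 2403 (4.29%) were at least 2 times as wide on day 1 as on day 0, 2647 (4.73%) on day 3 and 1846 (3.30%) on day 7. Regions whose width had fallen to 50% or less of day 0 numbered 181, 304 and 418. No peak in the lists was narrower than 200 bp. The 15296 regions with a day 0 peak under 400 bp therefore could not fall to 50%, while 2252 of the 2647 widened regions came from them. These counts thus do not show that widening was the more common change. The limit on day 3 cuts a continuous spread of ratios. The 3 regions just inside it were chr3:192140550-192141205 (308 to 616 bp), chr5:96034987-96035542 (278 to 556 bp) and chr5:138852715-138853465 (366 to 732 bp). The 3 just outside it were chr1:27159962-27160798 (419 to 837 bp), chr6:57354560-57355291 (335 to 669 bp) and chr2:189946870-189948100 (591 to 1180 bp). Regions on either side of the limit thus differ by a few bp.

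The widths of days 1 and 7 were not used to choose the widened regions, but the rule required exactly 1 peak in each of these lists too, and a ratio to day 0 shares the day 0 width with the rule. On day 1, 1862 of the 2647 (70.3%, 68.6 to 72.1) were already at least 2 times as wide as on day 0, beside 4.29% of all regions. On day 7 the count was 1503 (56.8%, 54.9 to 58.7), beside 3.30% of all regions. On all 3 induced days it was 1264 (47.8%, 45.8 to 49.7), beside 2.26% of all regions. A narrow day 0 peak, which the rule favours, enters every one of these ratios.

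The median width ratio to day 0 was 2.33 on day 1 (2.29 to 2.36), 2.53 on day 3 and 2.11 on day 7 (2.08 to 2.15). Over all regions it was 1.04, 1.03 and 1.01. The 13044 regions with a day 0 peak under 400 bp that were not widened had medians of 1.14, 1.14 and 1.07, but they were picked for a day 3 ratio below 2 and could not have reached the ratios of the widened regions on that day.

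Days 1 and 7 can be compared with each other without the widths that chose the regions, although a peak in both lists was required. The widened regions were narrower on day 7 than on day 1, with a median ratio of 0.921 (0.910 to 0.930), and 1738 of 2647 (65.7%, 63.8 to 67.5) were narrower. Over all regions the ratio was 0.966 and 61.5% were narrower. The scaled summit was lower on day 7 than on day 1 in 75.4% of widened regions (73.7 to 77.0), in 77.3% of all regions and in 67.1% (66.3 to 67.9) of the other regions with a day 0 peak under 400 bp. A lower summit on day 7 was thus not more frequent in the widened regions than over all regions, and more frequent than in the other narrow ones. The median log2 difference was -0.25 in the widened regions and -0.13 over all regions.

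The widened regions were grouped by the days on which they passed the limit. Each width rests on 1 list a day, and the limit cuts a continuous spread of ratios. The classes are thus descriptions and are not shown to be separate time courses. A few bp can decide the class of a region. At chr5:96034987-96035542, classed as wide on day 3 alone, the width was 551 bp on day 1 and 556 bp on day 3. These are 1.98 and 2.00 times its day 0 width. The largest class, 1264 regions, was wide on days 1, 3 and 7, with a median width of 268 bp on day 0 and 820, 879 and 774.5 bp after induction, and scaled summits of 4.89, 12.6, 13.4 and 10.5. A class of 598 regions (22.6%) was wide on days 1 and 3 and was below the limit on day 7, with medians of 284.5, 715, 723 and 459.5 bp. In these regions the scaled summit was 5.36, 11.1, 10.8 and 8.03. The lower width on day 7 is fixed by how the class is defined, and the summit was lower there too.

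The limit was not yet passed on day 1 in the other two classes. In 239 regions (9.03%) the limit was passed on days 3 and 7 alone, with a median width of 259, then 421, 686 and 642 bp, and scaled summits of 5.04, 7.28, 8.03 and 7.70. The remaining 546 regions (20.6%) passed it on day 3 alone, with 296.5, 463, 691.5 and 428 bp. The last class rests on the list that chose it, and its day 3 values are the ones most favoured by the choice. Likewise, day 3 was the widest induced day in 1707 widened regions (64.5%), day 1 in 636 (24.03%) and day 7 in 304 (11.5%), an order that the rule itself favours. Over all regions these shares were 36.04, 39.6 and 24.3%.

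**Figure D2:**
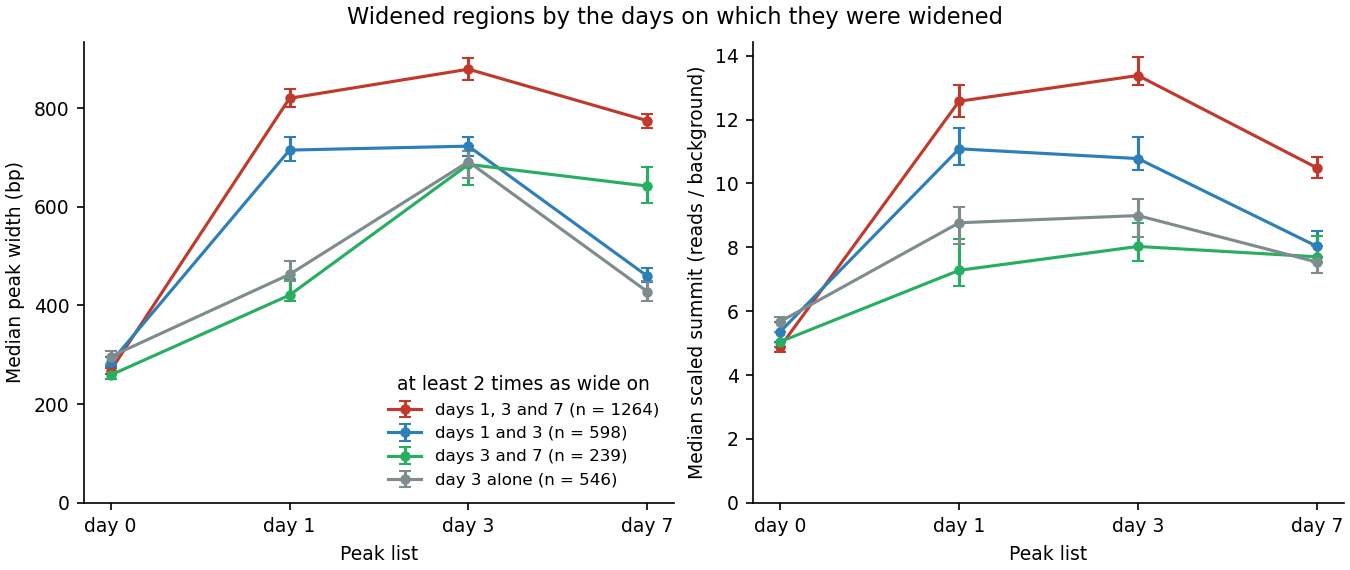
Median peak width in bp and median scaled summit by day for the 4 classes of widened regions, named by the induced days on which they were at least 2 times as wide as on day 0; error bars are 95% rank intervals of the median. Regions wide on all 3 induced days have the highest medians, 879 bp and 13.4 on day 3.

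Among the regions with the largest loss of width from day 3 to day 7, the width on day 7 was below that of day 0. At chr18:30128586-30129638 the width was 271, 962, 1053 and 210 bp on days 0, 1, 3 and 7, and the summit held 26, 61, 59 and 28 reads. At chr20:46402186-46403357 it was 261, 1125, 1132 and 252 bp, with 27, 71, 61 and 22 reads. Both were wide and high on days 1 and 3 and close to their uninduced size on day 7. On chromosome 18 the day 7 peak overlapped the day 0 peak. On chromosome 20 it did not, with the day 0 peak at 46403097 to 46403357 and the day 7 peak at 46402843 to 46403094. The other 2 of this kind, chr13:111573509-111574447 (299, 865, 904 and 214 bp) and chr6:659720-660556 (245, 655, 837 and 200 bp), had the same course of width. The day 7 peak overlapped the day 0 peak on chromosome 6 but not on chromosome 13, so a similar width there does not mean the same stretch.

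The 4 largest losses and the 4 largest gains of width from day 3 to day 7 were picked as extremes of 2647 ratios. Each rests on 1 list a day, so they say little about any single region. The largest gain was at chr10:17697598-17698620, where the width was 206, 511, 432 and 1023 bp with 24, 35, 38 and 41 reads. There the width was lower on day 3 than on day 1. At chr3:27637818-27638849 it was 293, 465, 619 and 1001 bp with 36, 61, 59 and 53 reads. At chr4:107208388-107209325 it was 211, 538, 625 and 938 bp, and at chr2:24954770-24955793 it was 294, 377, 691 and 1024 bp. In the chromosome 4 region the day 7 peak was the widest although its scaled summit was lower than on day 3, at 9.51 against 13.4. In the chromosome 3 region the scaled summit was close to level, at 8.77 on day 3 and 8.69 on day 7.

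Width and height went together in most widened regions. The scaled summit was at least 2 times higher than on day 0 in 1177 of them on day 1 (44.5%), in 1256 on day 3 (47.4%) and in 814 on day 7 (30.8%). The same held for 3.73%, 3.84% and 2.16% of all regions. The median log2 change of the scaled summit was 0.91 on day 1, 0.95 on day 3 (0.92 to 0.99) and 0.63 on day 7, against 0.08, -0.08 and -0.04 over all regions. All of these are measures of the contrast that chose the regions, or share its day 0 list, and are descriptions.

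The share of regions that were widened was higher the more the summit had gained. Among regions whose log2 summit change on day 3 lay between -0.5 and 0, 130 of 33262 (0.391%) were widened. The share was 3.56% between 0 and 0.5, 22.0% between 0.5 and 1, 47.2% between 1 and 1.5, and 66.7% between 1.5 and 2. At 2 or more it was 251 of 290 (86.6%, 82.1 to 90.3). With a day 0 peak under 400 bp the shares at the same steps from -0.5 on were 1.84, 8.25, 36.8, 76.2, 90.8 and 99.01%. With a day 0 peak of 400 bp or more they were 0.0733, 0.728, 4.86, 16.1, 32.5 and 57.5%. At equal gain in height, a narrow peak thus met the limit more often than a wide one. Within the 2647 widened regions the log2 width ratio and the log2 summit change of day 3 had a Pearson r of 0.40 and a Spearman rho of 0.37 across regions, which share both lists and are not replicates.

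**Figure D3:**
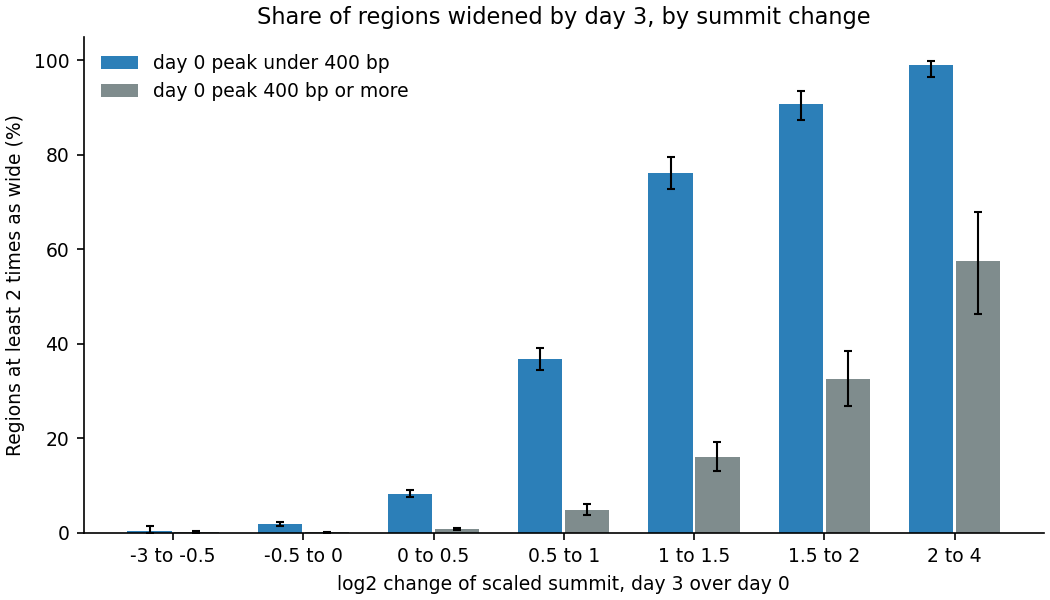
Share of regions at least 2 times as wide on day 3 as on day 0 (%) by the log2 change of the scaled summit between the same days, for regions with a day 0 peak under 400 bp and of 400 bp or more. Bars are shares with exact 95% intervals, and they climb from 1.84 to 99.01% in narrow peaks and from 0.0733 to 57.5% in wide ones between the step from -0.5 to 0 and the last step.

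The share that met the limit also differed with the day 0 width, which the rule uses as its denominator. Of 2661 regions with a day 0 peak of 200 to 249 bp, 975 (36.6%) were widened. The share was 17.9% at 250 to 299 bp, 7.23% at 300 to 399 bp, 2.72% at 400 to 499 bp, 1.04% at 500 to 699 bp and 0.109% at 700 to 999 bp. None of 11094 regions of 1000 bp or more was widened, which allows a share of up to 0.0332%. In all, 2252 widened regions (85.1%) had a day 0 peak under 400 bp, against 27.3% of all regions, and 168 stood at 200 bp, the smallest width in the lists. A ratio limit favours narrow day 0 peaks by its construction, and how many of them were narrow on day 0 by counting error was not tested.

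The background around the widened regions was also higher after induction. The local background that the caller estimated, read from the deposited values and scaled like the summits, was at least 2 times higher on day 3 than on day 0 in 340 widened regions (12.8%), against 1.27% of all regions. Its median log2 change was 0.30, 0.32 and 0.18 on days 1, 3 and 7, against 0.00, -0.04 and -0.03 over all regions. In none of the 55973 regions was the local background below the genome-wide background of its list. A region that stood at that value on day 0 could therefore only stay level or rise after scaling. The background window can also include reads of the peak itself. The median log2 change of the authors' fold, which divides by this background, was 0.57, 0.62 and 0.43, smaller than that of the scaled summit on each day.

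Widened regions were wider than other peaks of the same height on days 1 and 7, whose widths the rule did not use. Every widened region had a day 3 peak of at least 406 bp, a limit that the other regions did not have. The choice by day 3 width can therefore favour wider peaks in the other induced lists too, and these comparisons are descriptions. On day 1, at scaled summits of 5 to 7, 375 widened regions had a median width of 513 bp (489 to 537) and 7109 other regions one of 398 bp. At 9 to 12 the medians were 698 and 528 bp, and at 16 to 24 they were 909 and 805 bp. On day 7 they were 495 and 379 bp at 5 to 7 and 673 and 529 bp at 9 to 12. At 16 to 24 on day 7 the medians were 908 bp (849 to 969) and 876.5 bp (866 to 886), whose intervals overlap. Over days 1 and 7, the interval of the widened regions lay above that of the others in 11 of 12 height steps. On day 0, which was used to choose them, the widened regions were the narrower ones at equal height, with medians of 296 and 389 bp at 5 to 7.

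**Figure D4:**
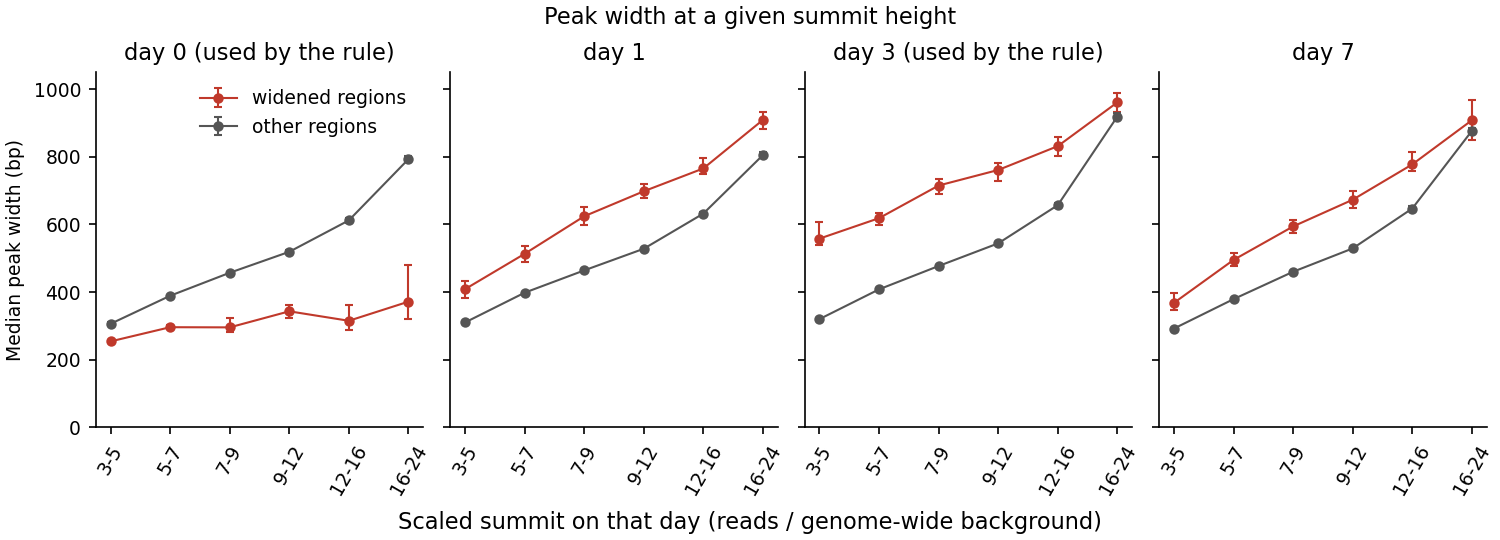
Median peak width (bp) of widened and other regions in steps of scaled summit, with 95% rank intervals, in each daily list; days 0 and 3 chose the regions. On days 1 and 7 the widened regions are wider than others of the same height, for example 513 against 398 bp at 5 to 7 on day 1, with overlapping intervals in the highest step of day 7.

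Not every widened region was higher. In 133 of them (5.02%, 4.22 to 5.93) the scaled summit was lower on day 3 than on day 0, beside 62.5% of all regions. Their median summit held 46, 45, 42 and 43 reads before scaling on days 0, 1, 3 and 7. The lower scaled summit on day 3 is fixed by how these 133 were chosen. Their median width was 278, 493, 645 and 430 bp on the same days. In 86 of the 133 (64.7%) at least 80% of the added bp lay on 1 side, against 35.1% of all widened regions. Only 40 of the 133 (30.1%) were also at least 2 times as wide on day 7, against 56.8% of all widened regions.

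The lowest summit changes belong to 4 of these regions. At chr12:79768353-79769185 the width was 388, 462, 788 and 337 bp on days 0, 1, 3 and 7 and the summit held 46, 45, 28 and 39 reads, a day 3 ratio of 0.574 (0.346 to 0.938) after scaling. At chr6:140253849-140255151 the width was 445, 1175, 977 and 765 bp with 67, 42, 47 and 71 reads, a ratio of 0.662 (0.446 to 0.975). In both, the day 3 peak was wider and its highest point lower than on day 0. At chr3:178989914-178990516 the ratio was 0.629 (0.359 to 1.08), and at chr10:11557549-11558475 it was 0.720 (0.470 to 1.10). The 4 were picked as the lowest of 2647, so intervals just below 1 among them say little about any single region.

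The highest summit changes show the reverse. At chr4:4811795-4813186 the width was 228, 1280, 1381 and 1120 bp and the summit held 20, 155, 181 and 111 reads, a ratio of 8.54 (5.37 to 14.3), with a local background 3.32 times as high. At chr21:30486838-30487913 it was 364, 713, 1067 and 912 bp with 21, 89, 162 and 89 reads, a ratio of 7.28 (4.60 to 12.1). The day 0 peaks at both places were near the weakest in the list, whose smallest summit held 18 reads. At chr2:149030601-149031548 the summit held 23, 130, 174 and 122 reads and the ratio was 7.13 (4.60 to 11.6).

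The 5 highest authors' folds on day 3 among widened regions were reached by peaks of 779 to 1002 bp. The median day 3 width of widened regions was 781 bp. At chr2:215458207-215458994 the fold was 3.68, 13.26, 12.97 and 11.32 on days 0, 1, 3 and 7 with widths of 288, 772, 779 and 701 bp. At chr5:125004395-125005331, also among the 4 largest summit changes, it was 3.40, 13.8, 12.4 and 11.9 with widths of 446, 863, 937 and 783 bp and 24, 176, 176 and 98 summit reads. These 2 regions kept a high fold on day 7, while their scaled summits were lower than on day 3, at 15.6 against 21.6 and 16.1 against 26.2. The other 3 of this kind were chr2:223823849-223824667, chr1:44287411-44288435 and chr1:165121903-165122804, with day 3 folds of 12.3, 12.3 and 12.1 and day 3 widths of 819, 1002 and 892 bp.

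The 5 largest width ratios were seen where a peak at or close to the minimum width became one of the widest among them. At chr5:127322756-127324407 the width was 200, 1546, 1652 and 1392 bp and the summit held 20, 96, 113 and 64 reads, a width ratio of 8.26 on day 3 and a summit ratio of 5.33 (3.29 to 9.05). At chr20:36722330-36723997 it was 213, 1624, 1634 and 1248 bp with 27, 56, 72 and 42 reads, a width ratio of 7.67 and a summit ratio of 2.51 (1.60 to 4.07). At chr8:37914965-37916527 it was 200, 1563, 1524 and 1187 bp with 36, 146, 135 and 68 reads. In all 3 most of the added width was present on day 1 and was kept on day 7. At chr10:81095473-81097021 the width was 212, 1396, 1547 and 1343 bp. At chr11:8254845-8256394 it was 202, 825, 1463 and 1475 bp, so here much of the width was added after day 1.

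In all 5 the day 3 summit lay outside the day 0 peak, between 248 and 463 bp from the day 0 summit. The most added sequence was at chr22:19608492-19610408, with 288, 1505, 1917 and 1180 bp and 37, 111, 143 and 83 reads, where the summit stayed inside the day 0 peak. At chr15:41283470-41285353 the width was 277, 1064, 1884 and 1096 bp, and at chr9:98619137-98620753 it was 242, 1466, 1617 and 1442 bp with the day 3 summit on the same base as on day 0.

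**Figure D5:**
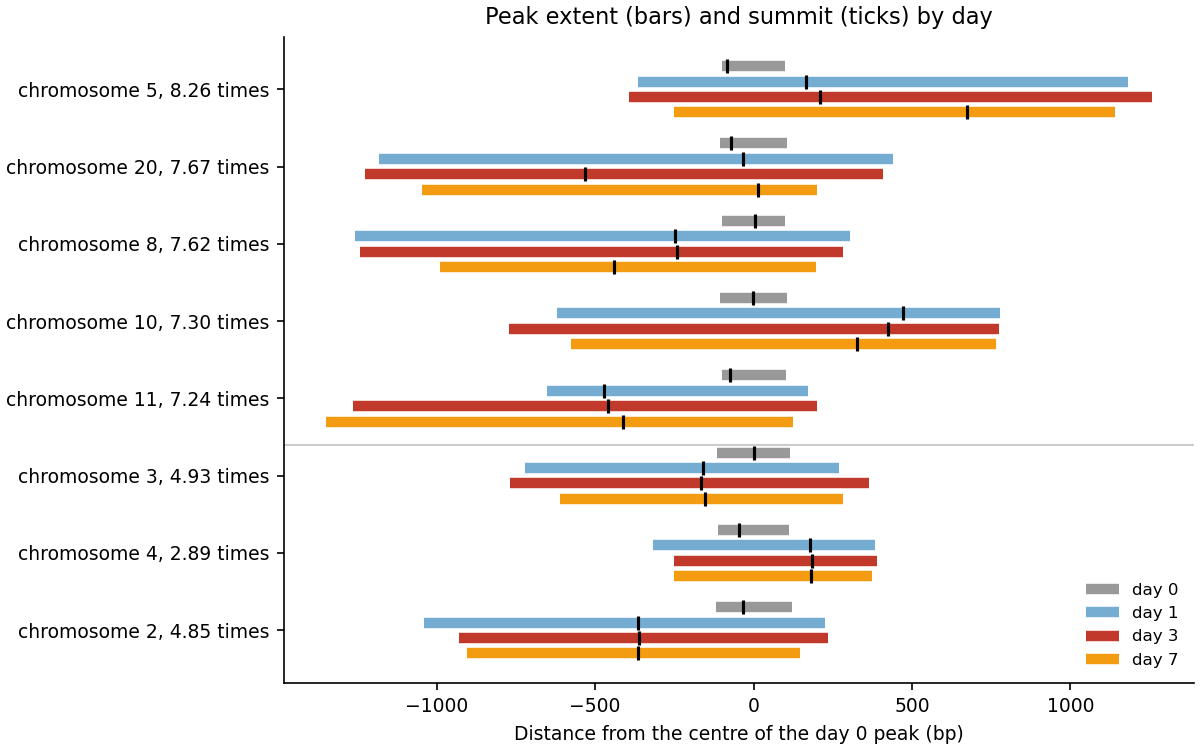
Peak extent (bars) and summit (ticks) on days 0, 1, 3 and 7 at 8 widened regions, against distance from the centre of the day 0 peak (bp). The upper 5 have the largest width ratios, 7.24 to 8.26, and the lower 3 are regions whose induced summits lay at 1 new place on each induced day.

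New sequence was mostly added around the old peak. The day 3 peak held the whole day 0 peak in 2376 widened regions (89.8%, 88.5 to 90.9), against 42.7% of the narrow regions that were not widened, a relation that a wider peak makes likely. At least 80% of the added bp lay on 1 side in 928 widened regions (35.1%), against 57.7% of all regions and 58.4% of the other narrow ones. Less than 65% lay on either side in 916 (34.6%), against 10.99% and 14.7%. Growth on both sides was thus counted more often in the widened regions than in these groups, whose median added length was 23 and 43 bp. A region with 1 edge drawn inward counted as grown on 1 side alone, and regions with no growth stayed in the totals. The day 3 peak held the whole day 0 peak in only 35.6% of all regions. The difference therefore follows at least in part from the choice by width. The regions that grew on both sides had the larger summit gains, with a median log2 change on day 3 of 1.204 (1.10 to 1.28) against 0.68 (0.61 to 0.73) in those that grew on 1 side. On day 1 the same medians were 1.09 and 0.61, for classes that are defined by the peak edges of days 0 and 3.

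In other widened regions the highest point itself moved. The day 3 summit lay outside the day 0 peak in 573 widened regions (21.6%, 20.1 to 23.3), against 1.96% of all regions and 2.93% of the other narrow ones. A summit can lie outside the day 0 peak only where the later peak reaches past it. The choice by width therefore favours a higher share in the widened regions, and these comparisons are descriptions. On day 1 this was so in 541 (20.4%), against 1.84% of all regions, and on day 7 in 556 (21.0%), against 1.98%. It held on all 3 induced days in 277 widened regions (10.5%), against 0.668% of all regions. In 267 (10.1%) the 3 summits lay on the same side of the day 0 peak, against 0.641% of all regions. Of the 573, 358 (62.5%) also had the day 1 summit outside the day 0 peak and 358 the day 7 summit, against 183 (8.82%) and 198 (9.55%) of the 2074 whose day 3 summit was inside. A moved summit on day 3 thus went with a moved summit in the other induced lists, with the day 0 peak in common.

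Most moved summits lay 100 to 499 bp from the old one. The median distance was 292 bp (271 to 303) in the 573 regions, and the counts were 27 under 100 bp, 144 at 100 to 199, 132 at 200 to 299, 102 at 300 to 399 and 83 at 400 to 499 bp. The other 85 lay farther away. The median width of these regions went from 250 bp to 735, 791 and 652 bp, with a median log2 summit change of 0.81 on day 3. Between days 1 and 7 their summits were a median of 79 bp apart (71 to 87), while those of days 1 and 7 were 195 and 205 bp from the day 0 summit. A larger distance to day 0 follows in part from the choice of regions with a day 3 summit outside the day 0 peak.

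In 16 widened regions the summits of days 1, 3 and 7 were outside the day 0 peak and within 10 bp of the day 1 place. The 3 of these with the highest day 3 fold, chosen after their values were seen, are shown here. At chr3:41460281-41461415 the induced summits lay 163, 169 and 156 bp before the day 0 summit on days 1, 3 and 7, with widths of 230, 989, 1135 and 892 bp over the 4 days and 25, 93, 113 and 89 summit reads. At chr4:73391362-73392066 they lay 225, 231 and 228 bp after it, with 23, 65, 90 and 55 reads. At chr2:169326478-169327752 they lay 331, 328 and 332 bp before it, with 24, 103, 111 and 82 reads. In each the new summit was higher than the old one had been on every induced day.

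Widened regions lay closer than others to regions that opened after induction. A region with no day 0 peak and a peak on days 1, 3 and 7 was found within 10000 bp of 756 widened regions (28.6%, 26.8 to 30.3), against 18.2% of all regions and 16.6% of the other narrow ones. The median distance was 20243 bp in widened regions, 35547 bp over all regions and 41390 bp in the other narrow ones. A region open on day 0 lay within 10000 bp of 65.7% of widened regions (63.9 to 67.5), of 66.4% of all regions and of 62.0% (61.1 to 62.8) of the other narrow ones. Position was not used by the rule, although the gained regions come from the same lists.

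Few widened regions had another within 10000 bp, but the share was higher than over all regions. Another widened region lay within 10000 bp in 144 (5.44%, 4.61 to 6.37), against 3.71% of all regions and 3.36% of the other narrow ones. Joined at that distance, 2503 stood alone, 69 groups held 2 and 2 groups held 3. The group on chromosome 10 spans 73698394 to 73709497, and its regions had day 0 widths of 226, 263 and 255 bp and day 3 widths of 516, 656 and 1302 bp. In that group the first region was back at 210 bp on day 7 while the other two were at 704 and 1245 bp. The group on chromosome 12 spans 52579884 to 52586289, with day 0 widths of 211, 222 and 207 bp and day 3 widths of 622, 626 and 450 bp.

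By chromosome, the share of regions that were widened was 2.02% on chromosome 19 (58 of 2869, 1.54 to 2.61), the lowest, and 3.43% on chromosome X (41 of 1196, 2.47 to 4.62). It was 6.13% on chromosome 21 (34 of 555, 4.28 to 8.46), 6.02% on chromosome 14 (110 of 1826) and 5.84% on chromosome 2 (238 of 4072). The low share on chromosome 19 was also present among narrow peaks alone: 53 of its 592 regions with a day 0 peak under 400 bp were widened (8.95%, 6.78 to 11.5), against 14.7% of 15296 such regions over all chromosomes.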

How the data were processed

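The widened regions and the classes used to describe them were chosen with earlier results of these data known. The labels and 1 deposited file were used, which joins 4 peak lists (days 0, 1, 3 and 7) with 411408 peaks. The list named for no day was taken as day 0, on which all day 0 values depend. The submitters' processing notes name Bowtie2, deepTools, MACS2 version 2.1.1.20160309 and hg19. Not given in the sources used here were read filters, any transposase offset, caller settings and whether replicates were pooled. Coordinates are 1-based hg19.

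For each peak the deposited file gives the authors' fold, a ratio of summit to local background, the authors' score, and the -log10 p and -log10 q of the authors' caller (p-value and q-value). The deposited start, end and summit offset are other values of the caller, in bp. Summit reads and local background were computed from fold and -log10 p, and for all 411408 peaks a whole number of reads matched to within 0.005 on that scale (largest misfit 0.000863). The commonest background value in a list stands for its genome-wide background.

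Peaks were merged where they overlapped by at least 1 bp, and width was end minus start. Named regions are the 5 widened regions with the largest width ratio, the 5 with the most added bp, the 5 with the highest day 3 fold, the 4 with the largest loss and the 4 with the largest gain of width from day 3 to day 7, the 4 lowest and 4 highest summit changes, and 3 on each side of the limit. The class under 400 bp, the limits of 80% and 65% for sides, the height steps, the distance of 10000 bp, the groups of 3 and the regions whose summit moved to 1 place were chosen after seeing the data. Shares have exact Clopper-Pearson intervals at 95%, medians have order-statistic intervals, and summit ratios have exact conditional binomial intervals. Reads that are PCR copies would make the last too narrow. Alternatives were 8 changes of the rule and 1 of the scaling. Scripts were tested on simulated data. Python 3.11.15, NumPy 2.4.6, pandas 2.3.3, SciPy 1.17.1 and matplotlib 3.10.9 were used. Genes, sequences, motifs and start sites at these regions were not analysed here, since the reference at hand is of another build.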

Additional observations from a re-analysis of the deposited data

How the results depend on the processing

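The lists hold 1 value a day, so widths carry no error estimate and weak day 0 summits, of 32 reads at the median, carry wide counting error. No paired analysis was possible because the deposited values are 1 list for each day with no value per sample, and for the same reason no replicate could be left out. The planned shares with an AP-1 motif and near a transcription start were not run. The count of widened regions, 2647, was 6264 at a width ratio of 1.5, 774 at a ratio of 3, 1062 with a day 0 peak of at least 300 bp and 1589 with a day 0 summit of at least 30 reads, each by construction of the limit. Under the other 4 changes of the rule the count ran from 1958 to 3613. It was 2646 with touching peaks merged too and 2074 with the day 3 summit inside the day 0 peak. It was 1958 with a score of at least 50 and 3613 with any number of peaks a list. The median log2 summit change on day 3, 0.95, was 0.55 at a ratio of 1.5, 1.396 at 3, 0.83 with any number of peaks a list, 1.13 with a day 0 peak of at least 300 bp and 0.80 with at least 30 reads. It was 1.03 when recentred so that the median of all regions was 0. The share still wide on day 7, 56.8%, was 27.4% at a ratio of 1.5, 85.9% at 3, 53.2% with the day 3 summit inside the day 0 peak, 53.6% with any number of peaks, 50.1% with a day 0 peak of at least 300 bp and 53.1% with at least 30 reads. The cause of these shifts in medians and shares was not tested. The median width ratio of day 7 to day 1, 0.921, stayed between 0.910 and 0.927 under all 8 changes of the rule.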
